A study of Mus musculus with 47 samples.

Results

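The Fc receptors and the signalling chain of Tyrobp were followed through liver, lung and brain of mouse embryos with mutant Daxx. The set holds 10 of the 20456 genes counted, taken by their symbols: the Fc gamma receptors Fcgr1, Fcgr2b, Fcgr3 and Fcgr4, the adaptors Fcer1g and Tyrobp, the kinase Syk, and Vav1, Cyth4 and Rasal3, which regulate small GTPases. All 10 passed the filter on low counts, which left 16892 genes to be tested. The set was chosen with earlier results of these data known. The shares of all genes set beside its counts are therefore a description and not a test.

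Fc receptors bind the constant part of antibodies and let myeloid cells take up or attack what the antibody has marked. Most activating receptors have no signalling tail of their own and depend on Fcer1g, the common gamma chain, whose ITAM motif is phosphorylated by Src family kinases and then recruits Syk. Tyrobp (DAP12) is a second ITAM adaptor, used by Trem, Siglec and Clec receptors of macrophages, microglia, granulocytes and NK cells, and it signals through Syk in the same way.

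The embryos were collected at E18.5 from crosses of heterozygous mice, and the alleles were made by CRISPR/Cas9 in the germline and crossed to C57BL/6J, so that every cell of a mutant carries the change. Daxx S226A/S226A embryos (S226A) carry a Daxx that was designed to lose its binding to the histone variant H3.3, and Daxx Y130A/Y130A embryos (Y130A) a Daxx designed to lose its binding to Atrx. The controls were wild-type littermates (Daxx +/+) of each mutant, and each of the 12 groups of tissue and genotype held 4 libraries, apart from the wild-type lungs of the Y130A set with 3. The study had removed a further wild-type lung of that set as an outlier by its gene expression. The libraries are of whole tissue, in which fewer cells of a type and less RNA per cell cannot be told apart.

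The total count per library lay between 15722147 and 26190403 in the S226A litters and between 36351738 and 54885020 in the Y130A litters, so that the low members were counted more precisely in the latter. Markers of hepatocytes, lung epithelium and neurons were highest in the tissue of their label in every group. Daxx itself had a log2 fold change between -0.12 and 0.04 over the 6 comparisons of mutant with wild type (lowest adjusted p = 0.857, edgeR), and since the alleles change codons of Daxx, its count does not check the labels. Transcripts of squamous epithelium stood out in 2 livers, with 521 reads of Krt5 in wild-type replicate 2 of the S226A litters and 944 in Y130A replicate 1, against at most 7 in any other liver.

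The members lie on 6 chromosomes of GRCm38. Fcgr2b, Fcgr3, Fcgr4 and Fcer1g are neighbours on chromosome 1, between 170958617 and 171234365, while Fcgr1 is on chromosome 3 (96282909 to 96293969, minus strand), Tyrobp on 7 (30413760 to 30417585, plus strand), Syk on 13 (52583173 to 52648792, plus strand) and Cyth4 on 15 (78597047 to 78622019, plus strand). Vav1 (57279100 to 57328031, plus strand) and Rasal3 (32390659 to 32403583, minus strand) share chromosome 17 with Daxx. Rasal3 lies 1505831 bp from Daxx and Vav1 23363510 bp. The exons of Rasal3 overlap the antisense gene CT485616.1, with which they share 10.5% of their 50-base words, and the strand used in counting is not given in the sources used here, so that reads of the pair cannot be told apart.

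The 250 bases before the RefSeq start sites (GRCm38.p6) were read for 9 members, and those of the 4 members among them whose called changes in S226A tissue were greatest in size are shown, 5′ to 3′ on the strand of the gene. Capitals mark GAGGAA or its reverse complement TTCCTC, the core bound by PU.1 and other ETS factors of myeloid cells. The Fcgr1 sequence is chr3:96293970-96294219 on the minus strand, that of Vav1 chr17:57278850-57279099 on the plus strand, that of Cyth4 chr15:78596797-78597046 on the plus strand and that of the first start site of Rasal3 chr17:32403582-32403831 on the minus strand.
Fcgr1: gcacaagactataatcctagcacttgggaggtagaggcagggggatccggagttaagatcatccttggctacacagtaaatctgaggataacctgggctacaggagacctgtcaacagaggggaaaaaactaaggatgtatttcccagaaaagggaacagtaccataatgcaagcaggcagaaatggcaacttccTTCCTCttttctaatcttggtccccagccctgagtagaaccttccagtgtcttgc
Vav1: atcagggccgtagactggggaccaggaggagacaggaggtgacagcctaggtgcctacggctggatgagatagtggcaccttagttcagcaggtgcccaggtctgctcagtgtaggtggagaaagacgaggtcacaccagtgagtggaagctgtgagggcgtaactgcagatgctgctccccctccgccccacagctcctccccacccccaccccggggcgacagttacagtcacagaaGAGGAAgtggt
Cyth4: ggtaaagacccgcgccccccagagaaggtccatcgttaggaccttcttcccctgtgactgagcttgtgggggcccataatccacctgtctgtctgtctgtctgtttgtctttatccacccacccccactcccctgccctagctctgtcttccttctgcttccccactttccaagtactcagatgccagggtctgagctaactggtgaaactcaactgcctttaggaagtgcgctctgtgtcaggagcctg
Rasal3: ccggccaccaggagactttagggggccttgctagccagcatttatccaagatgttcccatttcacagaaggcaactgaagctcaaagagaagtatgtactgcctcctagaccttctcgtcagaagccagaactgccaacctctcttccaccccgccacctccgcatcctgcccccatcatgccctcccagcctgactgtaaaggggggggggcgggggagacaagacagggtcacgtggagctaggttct
The 9 members had 12 start sites, of which those of Fcgr3 and those of Rasal3 overlap. The core was found at 6 of the 12, which belong to 5 members, against 23.3% of 32851 promoters of the same length, and in Syk it stood at the second of its start sites only. In the sequences shown, its first base stood at position -55 from the start in Fcgr1 and at -11 in Vav1. Neither Cyth4 nor Rasal3 held these letters in this window. The longer core GAGGAAGT, which overlaps the first, occurred at 2 of the 12 start sites, in Vav1 and Fcgr4, and in 2.44% of all promoters, the ETS and IRF composite element at 1, in Fcgr2b, and in 2.3%, and TTCNNNGAA at 3, in Fcgr1 and Rasal3, and in 7.02%, each on either strand. A match of letters is a description and not a bound site.

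In wild-type embryos, all 10 members were higher in liver than in lung, and higher in lung than in brain. The fetal liver is a main site of blood formation before birth. Every one of these differences between tissues passed an adjusted p of 0.05 (edgeR), where 80.1% of all genes differed between liver and lung, 87.3% between liver and brain and 84% between lung and brain in either direction, and 37.8%, 41.8% and 41.3% were higher in the first tissue. Vav1 was 2.63 higher in liver than in lung on the log2 scale and 4.89 higher than in brain, and Cyth4, with the smallest differences, 0.94 and 2.67. The tissues compared came largely from the same embryos, for which the main fit had no term.

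Per kilobase of exon, Tyrobp was the most abundant member in every tissue and Rasal3 the least. Tyrobp had 65.9 ± 10.8 CPM (counts scaled to library size) per kb in liver (SD, n = 8), 22.8 ± 6.78 in lung (n = 7) and 5.71 ± 0.793 in brain (n = 8). Rasal3 had 2.39 ± 0.528, 0.347 ± 0.109 and 0.0946 ± 0.0258. The second adaptor, Fcer1g, followed in liver with 30.7 ± 2.67 CPM per kb and was within 1 SD of Fcgr3 with 28.9 ± 3.57. Of the receptors, Fcgr3, a low-affinity activating receptor, led in every tissue, and the inhibitory Fcgr2b was the lowest in liver and in lung with 4.14 ± 0.376 and 0.715 ± 0.182. In brain, Fcgr4 was lower still, with 0.153 ± 0.1 CPM per kb and between 0 and 12 reads per library. Many neighbours in this order were not separated by their spread: in liver Cyth4 (4.34 ± 0.484) and Fcgr2b, in lung Vav1 (2.83 ± 0.438) and Fcgr1 (2.8 ± 0.648), and in brain Syk (0.619 ± 0.0649), Fcgr1 (0.595 ± 0.241) and Vav1 (0.582 ± 0.107).

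**Figure D1:**
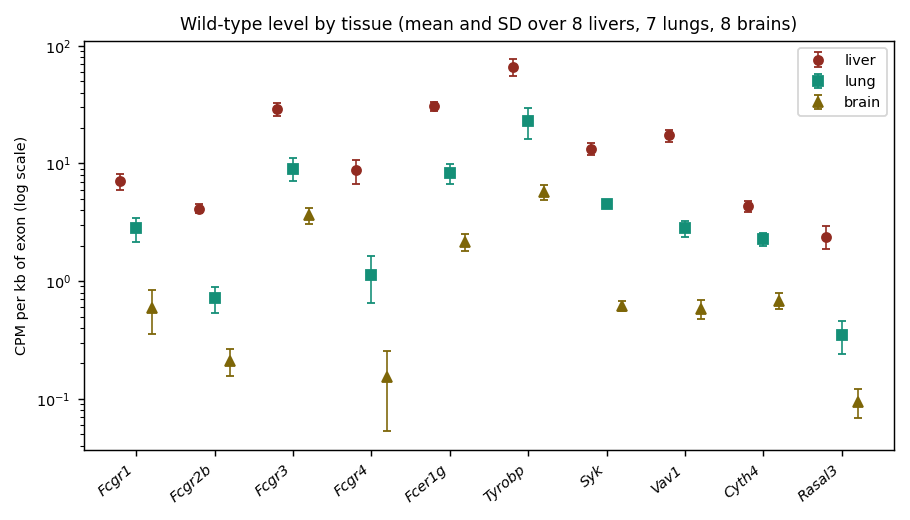
Level of each member in wild-type embryos, in CPM per kb of exon on a log axis, as mean and SD over 8 livers, 7 lungs and 8 brains of both litter sets. Every member falls from liver to lung to brain, and Tyrobp is highest in each tissue.

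In S226A liver, the high-affinity receptor Fcgr1 fell while both adaptors, Vav1 and Cyth4 rose. Of the 10 members, 5 passed an adjusted p of 0.05 (edgeR), 4 higher and 1 lower, where 11.7% of all genes did (6.14% higher and 5.54% lower). The median log2 fold change of the members was 0.41, and that of all genes tested -0.01. For 6 members every mutant liver was above every wild-type one, and for 1 below, compared with 6.7% and 5.18% of all genes (11.9% in either direction).

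Fcgr1, which binds monomeric IgG, had 3.22, 8.13, 3.72 and 8.17 CPM in S226A liver of litters 2875, 2881, 2970 and 2972, and 19.4, 17.5, 16.7 and 23 CPM in the wild-type littermates in the same order. Every S226A liver lay below every wild-type one. The log2 fold change was -1.71 (SE 0.263, adjusted p = 6.81e-06, edgeR), a mean of 5.81 ± 2.71 against 19.2 ± 2.82 CPM (SD, n = 4 each), and Fcgr1 was the only member in liver past the stringent criteria of the study (adjusted p below 0.01, a change beyond 1 on the log2 scale, SE below 1), which 2.1% of genes passed and 0.847% downwards.

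The other 3 receptors were not called in the fit of all libraries. Fcgr3 had 58.5, 60.3, 56.8 and 55.1 CPM in S226A and 43, 47.1, 48.8 and 44.2 in wild type, with no overlap, but its change of 0.33 (SE 0.133) had an adjusted p of 0.102 (edgeR), and it passed when only the 8 livers compared were fitted (0.35, adjusted p = 0.0143). The inhibitory receptor Fcgr2b, whose ITIM motif recruits phosphatases, had 23.6, 19.8, 19.2 and 27.5 CPM against 23.9, 21.8, 26 and 22.7, and the groups overlapped. Fcgr4, an activating receptor with its own preference among IgG classes, had 5.32, 11.2, 5.17 and 11.3 CPM against 11.8, 8.08, 12.9 and 11.7 (log2 fold change -0.42, SE 0.392, adjusted p = 0.563). Its S226A livers fell into a low and a high pair, and the low pair were the litters 2875 and 2970, which were also the low pair for Fcgr1. The summed macrophage markers had 287, 425, 332 and 352 CPM in the order of the litters. They were lowest in the same 2 litters but formed no clear pairs, with 332 CPM near the 352 of the next litter. Their part in these values was not tested.

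Fcer1g had 37.6, 40.1, 39.5 and 37.8 CPM in S226A liver and 28.5, 25.4, 25.7 and 24.6 in wild type. Tyrobp had 56.9, 72.5, 55.3 and 65.3 CPM against 38.9, 41.1, 49.3 and 37.3. For each adaptor, the lowest mutant library was above the highest wild-type one. The log2 fold changes were 0.57 for Fcer1g (SE 0.144, adjusted p = 0.00546) and 0.59 for Tyrobp (SE 0.159, adjusted p = 0.0105, edgeR). The length-corrected ratio of Fcgr1 to Fcer1g, its signalling partner, lay between 0.219 and 0.316 in wild-type and between 0.0289 and 0.0729 in S226A livers. The corresponding ratio of Tyrobp to Fcer1g lay between 1.79 and 2.52 in wild-type and between 1.83 and 2.37 in S226A livers.

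Among the genes downstream, Vav1, an exchange factor for Rac GTPases that acts after Syk, had 101, 96.8, 96 and 102 CPM in S226A liver and 55.5, 55.9, 62.4 and 65.6 in wild type (log2 fold change 0.73, SE 0.136, adjusted p = 1.74e-04, edgeR). Cyth4, an exchange factor for Arf GTPases, had 47.4, 44.4, 46.7 and 50.4 CPM against 29.5, 31.3, 38.2 and 35.1 (0.49, SE 0.124, adjusted p = 0.00539). These groups did not overlap for either gene. Rasal3, a Ras GTPase-activating protein of leukocytes, had 16.5, 17.7, 16.3 and 17.1 CPM against 7.9 to 13.5, also without overlap, but its change of 0.59 (SE 0.257) had an adjusted p of 0.136, and of 0.0332 when only the 8 livers compared were fitted (edgeR). Syk lay between 126 and 156 CPM in S226A and between 127 and 131 in wild type, and the groups overlapped in the library of litter 2970 (0.17, SE 0.0939, adjusted p = 0.27). The length-corrected ratio of Vav1 to Syk was between 1.09 and 1.27 in wild-type livers and between 1.64 and 1.94 in S226A livers.

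Markers of other myeloid cells moved in the same livers. Of 15 macrophage markers, 14 were lower and 0 higher in S226A liver, with summed levels between 287 and 425 CPM in S226A and between 1004 and 1154 CPM in wild type, and Vsig4, a receptor of Kupffer cells, was at 0 reads in all 4 S226A livers. All 13 markers of neutrophils and their precursors were higher, and their sum lay between 9242 and 9957 CPM in S226A and between 3196 and 3815 CPM in wild type. The sum of 8 monocyte markers was between 313 and 354 CPM in S226A and between 164 and 192 CPM in wild type, while 2 of the 8, Ly6c2 and F13a1, were called higher and 0 lower (median log2 fold change 0.33). The part of these shifts in the values of the members was not tested. At the same threshold, the 5 calls in liver held in all 14 alternatives, among them litter as replicate block, DESeq2, the leaving out of each library and the leaving out of the wild-type liver with squamous transcripts.

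**Figure D2:**
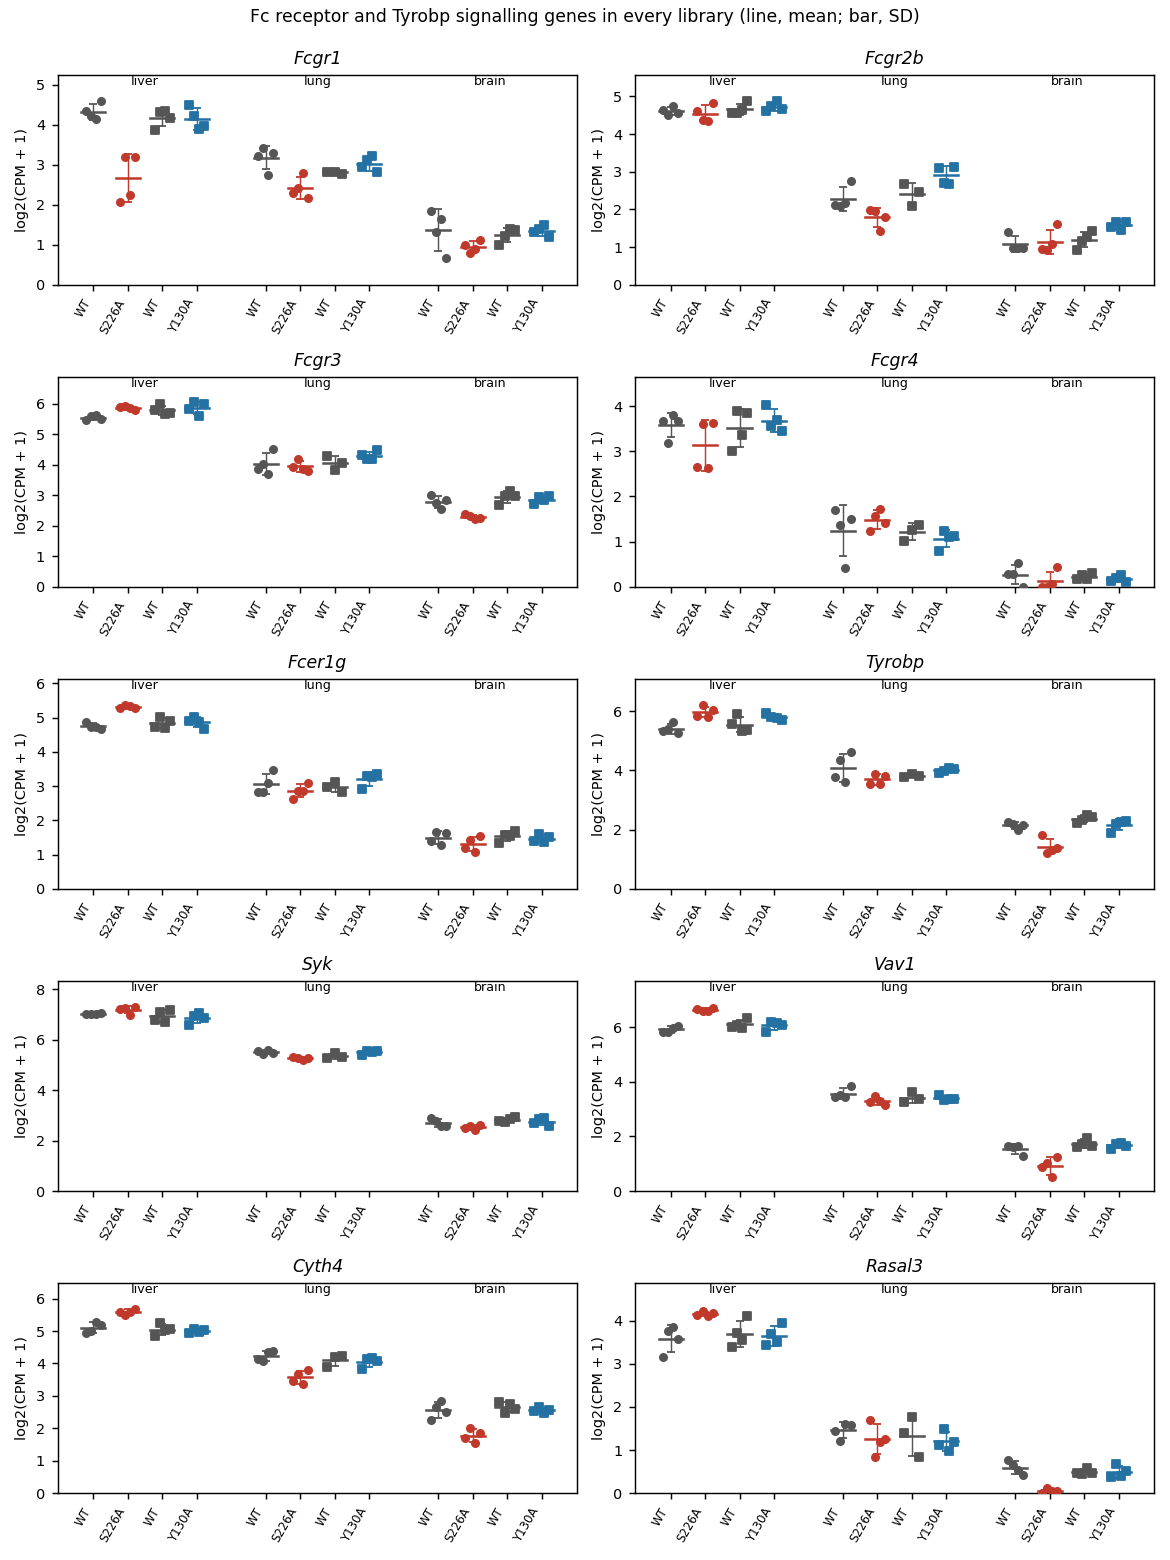
Every library of the 12 groups for each member, as log2(CPM + 1), with red circles for S226A, blue squares for Y130A, grey for their wild-type littermates, and lines and bars for the mean and SD of the plotted values. The S226A livers lie below all wild-type livers of their litters for Fcgr1 and above them for Fcer1g, Tyrobp, Vav1 and Cyth4, and the S226A brains lie close to 0 for Rasal3.

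In S226A lung, Cyth4 was the member that passed the test, and it fell. The other 9 members did not pass it, 8 of them with negative and 1 with a positive log2 fold change. Cyth4 had 9.97, 11.8, 9.38 and 12.9 CPM in S226A lung and 16.6, 15.9, 19.2 and 20 CPM in wild type, in the order of the litters above. No S226A lung reached the lowest wild-type lung. The log2 fold change was -0.70 (SE 0.128, adjusted p = 9.44e-04, edgeR). Over all genes, 1.88% passed the test in lung (1.02% lower).

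The other members of lung gave changes between -0.88 for Fcgr1 and 0.27 for Fcgr4, with adjusted p-values of at least 0.0665. Tyrobp (-0.47, adjusted p = 0.128) and Vav1 (-0.31, adjusted p = 0.273, edgeR) overlapped between the groups. Both were lower within each of the 4 litters, as were Fcgr2b, Syk and Cyth4, while Fcgr3 was higher in 3 of the 4. Fcgr1 had 3.86, 4.38, 5.99 and 3.5 CPM in S226A and 8.36, 9.71, 5.75 and 8.91 in wild type, and the groups overlapped because of litter 2970 (-0.88, SE 0.262, adjusted p = 0.0665, edgeR), while Fcgr1 passed in DESeq2 (-0.91, adjusted p = 0.0187). Fcgr2b had 2.93, 2.89, 1.69 and 2.47 CPM against 3.36, 3.24, 3.51 and 5.72, without overlap (-0.67, SE 0.224, adjusted p = 0.114). Syk was also without overlap, with 38.7, 37.5, 35.5 and 37.1 CPM against 46.1, 42.1, 47.2 and 42.7 (-0.26, SE 0.0962, adjusted p = 0.152). The 3 members without overlap, Cyth4 included, were all lower, where 1.72% of genes were separated in this direction and 3.81% in either. The median of the members was -0.31 and that of all genes 0.

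In lung, 4 macrophage markers were lower and 2 higher, with a summed level between 261 and 279 CPM in S226A and between 336 and 388 CPM in wild type, and no marker at 0. Markers of neutrophils were higher for 7 of 13, with a sum between 149 and 202 CPM in S226A and between 38.7 and 82.7 CPM in wild type. Of 8 monocyte markers, Ccr2 was called lower and 0 higher (median log2 fold change -0.40), and their sum lay between 147 and 190 CPM in S226A and between 175 and 290 CPM in wild type. Of 10 B lineage markers, 2 were lower and 0 higher, and of 9 microglia markers Cx3cr1 was lower and 0 higher (median -0.44), with sums between 253 and 310 CPM in S226A and between 240 and 271 CPM in wild type. The part of these lists in the change of Cyth4 was not tested. The call of Cyth4 was lost when only the 8 lungs compared were fitted (adjusted p = 0.127, edgeR), while its log2 fold change lay between -0.79 and -0.63 over 13 alternatives.

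In S226A brain, the adaptor Tyrobp and 3 regulators of GTPases fell, and all 4 were past the stringent criteria in the main fit. Tyrobp, Cyth4 and Vav1 were close to the cutoff of 1 on the log2 scale. Their changes came down to -0.90, -0.90 and -0.82 in size under alternatives, while Rasal3 stayed beyond the cutoff. The share of all genes past the adjusted p of 0.05 in brain was 0.243% (0.184% lower), and past the stringent criteria 0.124% (0.0947% lower). No member rose in the test. The median log2 fold change was -0.93 over the members and 0 over all genes, and 5 members had no overlap between mutant and wild type, all lower, where 2.48% of all genes had none (1.24% lower).

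Rasal3 showed the change of greatest size, at low counts. It had 0, 2, 1 and 1 reads in the S226A brains of litters 2875, 2881, 2970 and 2972, and 20, 14, 12 and 8 reads in their wild-type littermates. Pooled over the group, 4 against 54 reads gave a ratio of 0.0747 after scaling to library size, with a 95% counting interval from 0.0197 to 0.203. The interval covers counting error only. The fitted log2 fold change of -3.61 (SE 0.555, adjusted p = 1.23e-04, edgeR) depends at such counts on the prior count of the tool. In liver, Rasal3 had between 246 and 383 reads in the S226A embryos, and in lung between 17 and 48.

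Cyth4 had 2.22, 3, 1.94 and 2.59 CPM in S226A brain and 3.8, 5.24, 6.15 and 4.71 CPM in wild type. Vav1 had 0.836, 1.05, 0.413 and 1.4 CPM against 2.15, 2.08, 2.15 and 1.43, so that the groups were separated only by the narrow gap of litter 2972, with 40 reads in S226A and 34 in the shallower wild-type library. Tyrobp had 2.51, 1.33, 1.49 and 1.57 CPM against 3.84, 3.54, 2.96 and 3.49. The mutant brains thus lay below the wild-type brains for these 3 genes. The log2 fold changes were -1.02 for Cyth4 (SE 0.145, adjusted p = 3.39e-05), -1.06 for Vav1 (SE 0.202, adjusted p = 0.0041) and -1.01 for Tyrobp (SE 0.202, adjusted p = 0.00747, edgeR).

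The receptors, Fcer1g and Syk did not pass the test of edgeR in brain. Syk changed by -0.22 on the log2 scale and Fcgr2b, the only member with a positive change, by 0.14. The groups overlapped for both. Fcgr3 had 4.18, 3.98, 3.68 and 3.81 CPM in S226A and 7.04, 5.7, 4.85 and 6.18 in wild type, without overlap (-0.60, SE 0.151, adjusted p = 0.0838, edgeR). It passed in DESeq2 (adjusted p = 0.0255), where 5 members were called, and in edgeR without wild-type brain replicate 4 of the S226A litters (adjusted p = 0.0499). Fcer1g had 1.3, 1.68, 1.12 and 1.89 CPM against 1.65, 2.16, 1.41 and 2.1 (-0.28, SE 0.184), and it was lower within each of the 4 litters although the groups overlapped. The length-corrected ratio of Tyrobp to Fcer1g had a median of 1.42 in S226A and 2.47 in wild-type brains, and the ranges of 1.04 to 2.54 and 2.14 to 3.04 overlapped. Fcgr1 and Fcgr4 were lower in 3 of the 4 litters and higher in litter 2972, where the wild-type brain had 14 reads of Fcgr1 and 0 of Fcgr4. Fcgr4 had at most 12 reads per brain in the S226A litters, and its log2 fold change of -1.04 had an SE of 0.748.

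Microglia are the resident phagocytes of the brain. Of 9 microglia markers, 4 were lower and 0 higher in S226A brain, led by Cx3cr1 with -2.21 on the log2 scale, and their sum lay between 44.3 and 47.5 CPM in S226A and between 66 and 77.7 CPM in wild type. Of 15 macrophage markers, 5 were lower and 1, Marco, was higher, with sums between 68.3 and 82.3 CPM in S226A and between 109 and 115 CPM in wild type. Vsig4 was at 0 in both groups and Marco in the wild type. Of 13 neutrophil markers, S100a8 and S100a9 were higher, with sums of the list between 7.56 and 15.8 CPM in S226A and between 3.94 and 6.07 CPM in wild type. Their part in the change of the members was not tested.

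In the 10 calls of a member in S226A liver, lung or brain the groups did not overlap, so the exact permutation test on log2(CPM + 1) could give only its smallest p (two-sided exact p = 0.0286 for 4 libraries against 4) and adds nothing to that. The calls of Cyth4 and Rasal3 in brain held in every alternative in which they were fitted. That of Vav1 was lost with litter as replicate block (adjusted p = 0.0739, edgeR). That of Tyrobp was lost without S226A brain replicate 2 or 4 (adjusted p up to 0.071). In a fit of the 8 brains alone, the calls of Tyrobp (adjusted p = 0.095) and Vav1 (adjusted p = 0.591) were lost and Rasal3 fell under the filter on low counts.

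**Figure D3:**
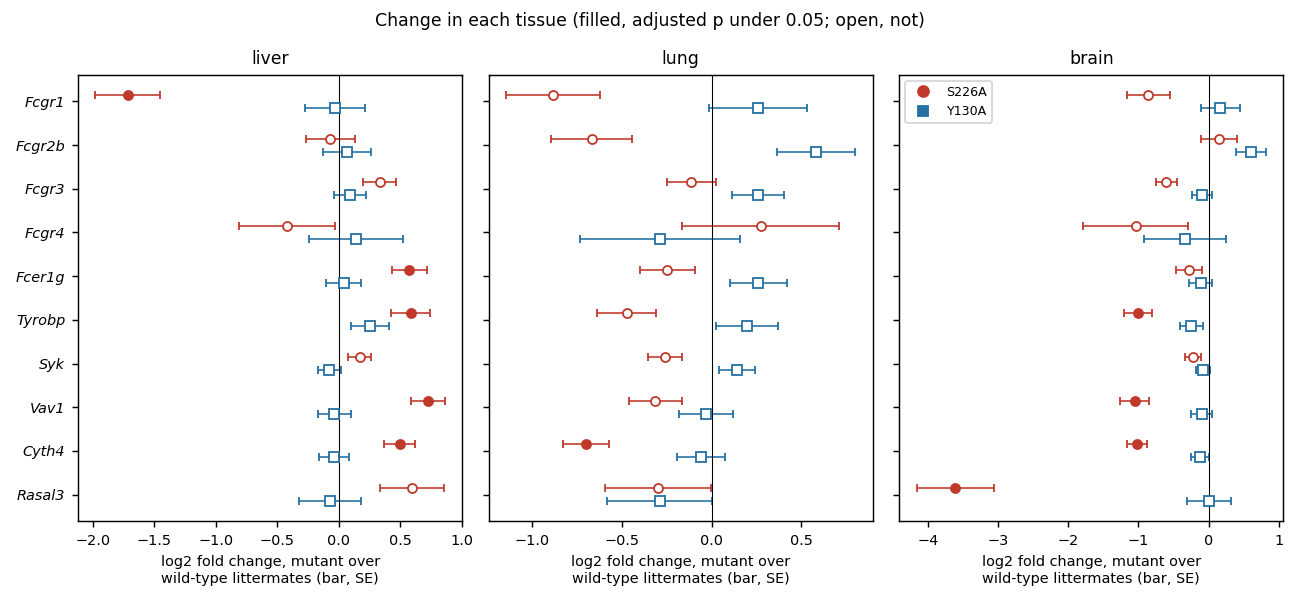
Log2 fold change of each member in liver, lung and brain, mutant over wild-type littermates, with SE as bars, red circles for S226A and blue squares for Y130A. Filled symbols had an adjusted p below 0.05, of which S226A liver had 5, S226A lung 1, S226A brain 4 and Y130A 0. The axes of the 3 panels differ in range.

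The S226A effect in liver differed from that in lung and from that in brain for both adaptors, Vav1 and Cyth4, and for Rasal3 from that in brain. These differences were tested as interactions, which share the S226A and wild-type livers, lungs or brains between them. Liver, lung and brain came from the same embryos, apart from the wild-type lung of litter 2970. The main fit had no term for the embryo, and the litter block for these tests was set within each tissue. Between liver and lung, 5 members passed (6.9% of all genes did, 4.11% with a positive difference). Their differences in log2 fold change were 1.19 for Cyth4 (SE 0.178, adjusted p = 7.83e-06), 1.06 for Tyrobp (SE 0.229, adjusted p = 0.00191), 1.04 for Vav1 (SE 0.199, adjusted p = 4.27e-04), 0.82 for Fcer1g (SE 0.21, adjusted p = 0.0111) and 0.43 for Syk (SE 0.134, adjusted p = 0.0444, edgeR). The call of Syk was lost in 13 of 22 alternatives, and that of Fcer1g only when no more than the libraries compared were fitted (adjusted p = 0.0502).

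Between liver and brain, 6 members passed, where 3.71% of all genes did (2.44% with a positive difference). The differences were 4.204 for Rasal3 (SE 0.616, adjusted p = 1.01e-05), 1.78 for Vav1 (SE 0.243, adjusted p = 3.39e-06), 1.59 for Tyrobp (SE 0.257, adjusted p = 4.55e-05), 1.52 for Cyth4 (SE 0.191, adjusted p = 6.57e-07), 0.94 for Fcgr3 (SE 0.201, adjusted p = 0.0027) and 0.85 for Fcer1g (SE 0.234, adjusted p = 0.0283, edgeR). Fcer1g lost its call in 4 of 22 alternatives, each of which left out 1 brain. Between lung and brain, 1 member passed, Rasal3 with 3.31 (SE 0.651, adjusted p = 0.0119), against 0.124% of all genes (0.0592% with a positive difference), and its call was lost when only the libraries compared were fitted (adjusted p = 0.169) and without S226A brain replicate 3 (adjusted p = 0.0621). The change of Fcgr1 was negative in all 3 tissues and its differences between tissues did not pass, with -0.83 between liver and lung (SE 0.367, adjusted p = 0.178) and -0.85 between liver and brain (SE 0.407, adjusted p = 0.301).

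**Figure D4:**
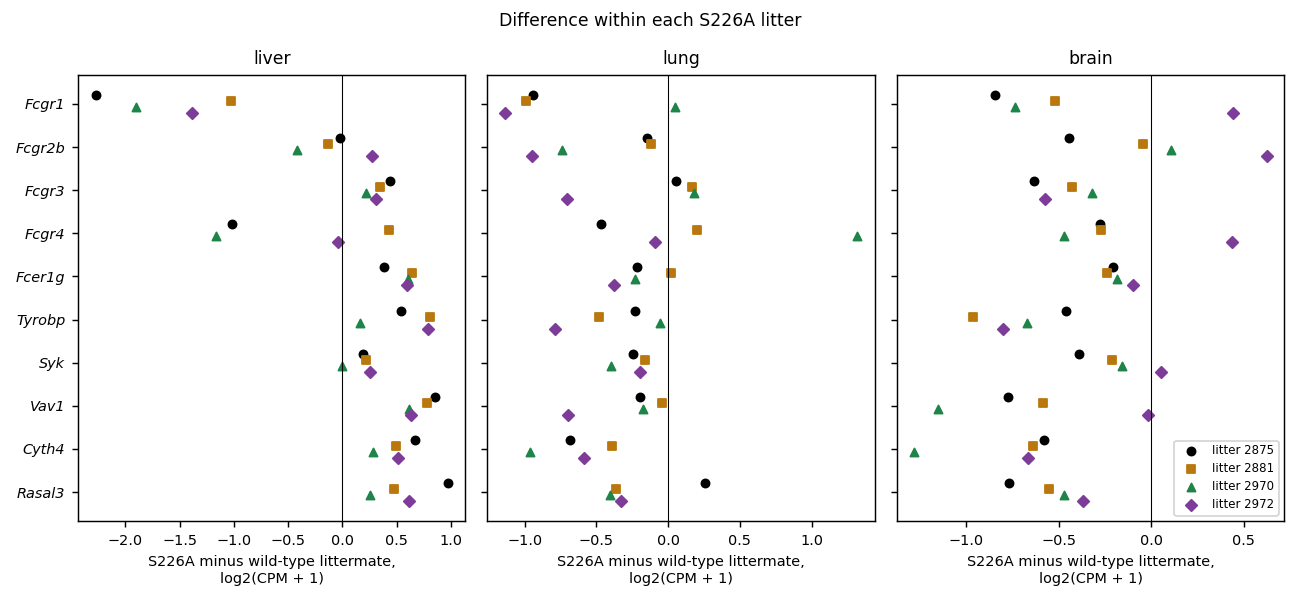
Difference between the S226A embryo and its wild-type littermate within each of the 4 litters, in log2(CPM + 1), by tissue. Fcgr3, Fcer1g, Tyrobp, Vav1, Cyth4 and Rasal3 are higher in all 4 litters in liver, Cyth4 is lower in all 4 in lung and in brain, and Fcgr4 lies on both sides of 0 in every tissue. The wild-type embryo of litter 2970 was a different one in lung.

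In the Y130A embryos, no member passed the test in any tissue, with 0 calls by edgeR, by DESeq2 and in every other alternative. The background was low as well, with 0.272% of all genes called in liver, 0.0178% in lung and 0.00592% in brain. Of the unadjusted p-values of edgeR, none of a member was below 0.05 in liver, and that of Fcgr2b alone was in lung and in brain, where 9.22%, 2.92% and 2.22% of all genes had such a p in liver, lung and brain. The median log2 fold change over the members was 0 in liver, 0.17 in lung and -0.10 in brain.

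Fcgr2b was higher in Y130A lung and brain without overlap of the groups. In lung, it had 7.58, 5.51, 5.39 and 7.78 CPM in Y130A of litters 2848, 2851, 2974 and 3069, and 5.33, 3.28 and 4.55 CPM in the wild-type lungs of the first 3 litters (0.58, SE 0.218, adjusted p = 1, edgeR). In brain, it had 1.89, 2.17, 1.74 and 2.18 CPM in Y130A and 0.905, 1.25, 1.39 and 1.7 CPM in wild type (0.60, SE 0.217, adjusted p = 1). Tyrobp was the other member without overlap in Y130A lung, with 14, 14.8, 15.9 and 15.7 CPM against 12.7, 13.8 and 13, at a change of 0.20 (SE 0.173). Over all genes, 4.16% in lung and 4.75% in brain had groups without overlap (1.61% and 2.66% higher), and 2.35% in liver, where no member had. The reads of Fcgr2b are uncertain, because 6.95% of its 50-base words also occur in other genes, Fcgr3 among them, and because Gm38204 overlaps the exons of Fcgr2b on the opposite strand.

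Fcgr1 had 21.5, 17.6, 13.8 and 14.6 CPM in Y130A liver against 13.7, 19.1, 19.2 and 17 CPM in wild type, and the groups overlapped (-0.03, SE 0.246). The difference between the S226A and the Y130A effect in liver was -1.68 for Fcgr1 (SE 0.358, adjusted p = 0.0022) and 0.76 for Vav1 (SE 0.191, adjusted p = 0.00975, edgeR), and these 2 members passed where 5.9% of all genes did (3.19% with a positive and 2.71% with a negative difference). With litter as replicate block, 4 members passed, the others being Fcer1g (0.53, adjusted p = 0.0337) and Cyth4 (0.53, adjusted p = 0.0476). The rise of Tyrobp in S226A liver was not separated from the value in Y130A liver, with a difference of 0.33 (SE 0.223, adjusted p = 0.473).

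In lung, no member differed between the effects of the mutants (0.308% of all genes did). Fcgr2b came nearest, with -1.25 (SE 0.313, adjusted p = 0.0725, edgeR), and 6 members had an unadjusted p below 0.05, where 9.8% of all genes did. In DESeq2, 2 members passed in lung, Fcgr2b (adjusted p = 0.00819) and Cyth4 (adjusted p = 0.029), and without wild-type lung replicate 2 of the S226A litters Fcgr2b passed in edgeR too (adjusted p = 0.0308). In brain, Rasal3 and Cyth4 passed, against 0.0829% of all genes (0.077% with a negative difference). Rasal3 had 15, 32, 18 and 21 reads in Y130A brain and 21, 21, 28 and 20 in wild type, and the S226A effect was 3.61 lower on the log2 scale (SE 0.659, adjusted p = 0.00683), which held in all 21 alternatives. For Cyth4, the difference of -0.89 (SE 0.194) had an adjusted p of 0.0474 and lost its call in 16 of 21 alternatives, the block among them (adjusted p = 0.08).

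Beyond the 10 members, 109 genes of the same pathways were listed, of which 104 were in the counts and 99 were tested. In S226A liver, 28 of the 99 were higher and 13 lower, with a median of 0.19, in S226A lung 1 was higher and 11 lower (-0.16), and in S226A brain 3 were lower and 0 higher (-0.04). Of all genes, 6.14% were higher and 5.54% lower in liver, 0.852% higher and 1.02% lower in lung, and 0.184% lower in brain. In Y130A, 0 were called in each tissue. Some receptors that pair with Tyrobp rose in S226A liver: Trem1, an amplifier of granulocyte responses, by 1.66 on the log2 scale, Trem3 by 1.60 and Clec5a by 1.42. Others on that list fell, with Siglech at 2 reads in the 4 S226A livers against 82 in wild type, and Cd300c2 at -1.51 (adjusted p = 5.11e-05, edgeR).

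Of 20 adaptors and enzymes downstream of Syk, 6 were higher and 0 lower in S226A liver, led by Card9, which links Syk to NF-kappaB, with 1.28, and Pik3r5 with 1.01. In S226A lung, 3 of them were lower and 0 higher, led by Pik3ap1 with -1.45 and Lcp2 with -0.80. Plcg2, a phospholipase activated by Syk, was higher in liver (0.76, adjusted p = 1.23e-05) and lower in lung (-0.67, adjusted p = 0.00165, edgeR). Of the Src family and Btk, Fgr rose in S226A liver by 1.30 and Blk and Fyn fell, the former with a place among the B cell markers as well, of which 5 of 10 fell in liver. Of 14 phosphatases and inhibitory receptors tested, 6 were higher in liver and 0 lower, among them Cd300lf (1.19), Lilrb4a (1.16), Pirb (0.89) and Ptpn6 (0.77), and 2 were lower in lung, Pilra (-1.06) and Sirpa (-0.67).

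Among 23 regulators of GTPases, 8 were higher and 5 lower in S226A liver. Rasgrp4 (1.38) and Arhgdib (1.13) led those that rose, and Rasgrp1 (-2.27) and Rasa4 (-0.85) those that fell. Dock2, an activator of Rac in leukocytes, was 0.59 higher in S226A liver and 0.86 lower in S226A brain on the log2 scale, which are directions that Vav1 and Cyth4 had too. Receptors that pair with Fcer1g or carry a hemITAM gave 3 higher genes in liver, Clec4d (1.44), Il3ra (0.79) and Csf2rb (0.56), and in lung Clec4d was higher (1.98) while Csf2rb was lower (-0.99).

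Of the remaining Fc receptors and Fc receptor-like genes, 7 of 12 were tested, and 4 were lower and 0 higher in S226A liver. Fcrls, a receptor-like gene of tissue macrophages and microglia, was lower in all 3 tissues of S226A, by -2.99 in liver, -1.76 in lung and -2.29 in brain on the log2 scale (highest adjusted p = 0.00501, edgeR). Fcrla, an intracellular receptor-like protein of B cells, was lower in liver with -3.44, and in lung it had 0 reads in S226A and 24 in wild type. Fcgrt, the neonatal Fc receptor that carries maternal IgG, had 81.1 ± 13.2 CPM in S226A liver and 118 ± 9.21 CPM in wild type (SD, n = 4 each), a change of -0.54 (SE 0.11, adjusted p = 5.76e-04). Fcamr, which binds IgA and IgM, was called at 0 against 17 reads.

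The genes most like each member were sought by correlation across all 47 libraries. Every member differed between the 3 tissues. The part of the tissues in these correlations was not tested, and the values are given as a description with no test. The gene most like Tyrobp in log2(CPM + 1) was Cd53 (Pearson's r = 0.992), that most like Syk was Inpp5d (0.995), and that most like Vav1 was Nckap1l (0.993), which was also among the 3 genes most like Fcgr3 and Tyrobp. Cyth4 was nearest to Myo1f (0.983), Rasal3 to Rab44 (0.987), Fcgr3 to Arhgdib (0.987), Fcgr4 to Tent5a (0.981) and Fcgr2b to Selenop (0.982). Fcgr1 stood furthest from any other gene, with r = 0.952 for Cd79b, followed by Cd300c2 and Il10ra.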

How the data were processed

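RNA-seq libraries of liver, lung and brain (47 libraries, 12 groups) were analysed as deposited. The authors trimmed the reads with Trim Galore 0.6.5, checked them with FastQC 0.11.5, aligned them to GRCm38 with STAR 2.6.0b and deposited raw counts per gene without normalization. The strand used in counting is not given in the sources used here. Symbols and positions were taken from GENCODE M21 (20424 of 20456 IDs matched), and promoters from RefSeq (GRCm38.p6).

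The counts were fitted with edgeR 4.0.16 (R 4.3.3), as quasi-likelihood fits over all 47 libraries in which each group had its own coefficient, TMM scaling and the filterByExpr filter (minimum count 10, minimum total 15). P-values were adjusted by Benjamini-Hochberg over the 16892 genes tested, and a gene was called at an adjusted p below 0.05. To obtain the SE, each log2 fold change was set over the root of its F statistic. CPM were TMM-scaled. Single values were compared by two-sided exact permutation tests on log2(CPM + 1) in Python 3.11.15 (scipy 1.17.1). The scripts were tested on simulated data.

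The alternatives were DESeq2 1.42.0, RLE size factors, no filter, a fit of only the libraries compared, the stringent criteria, a pseudocount of 0.1 or no TMM for the permutation tests, leaving out each library, and litter as replicate block. The litter number in the labels pairs mutant and wild-type embryos: residuals of littermates correlated above 0.1 in 18 of 23 pairs (median 0.21), and those of other pairs in 5 of 69 (median -0.06). No 2 replicates agreed within sampling noise (lowest chi-square per degree of freedom 4.17).

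The members and the gene lists were chosen with earlier results of these data known. The text names all members and, of each pathway list, at most the 4 called genes of greatest change per comparison. Marker lists without a change named above gave, in S226A liver, 1 of 10 mast cell genes higher, 1 of 10 T and NK cell genes higher, 1 of 9 microglia genes higher and 2 lower, 1 of 6 neuronal genes lower, and 0 of 7 megakaryocyte, 0 of 9 erythroid, 0 of 6 hepatocyte and 0 of 6 lung epithelial genes called, and in S226A lung and brain 0 called in each list not named there. Intervals cover counting error only. The gene most like Fcer1g across libraries is not reported here.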

Additional observations from a re-analysis of the deposited data

Results flagged for a closer look

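Of 110 combinations of a member with a group of 4 libraries, 6 held a library far from the other 3, and chance alone gives about 1 in 20. In Y130A lung, replicate 1 was lowest for Fcer1g with 6.51 CPM (others 8.68 to 9.19) and highest for Vav1 with 10.6 CPM (others 9.11 to 9.32). Among the wild-type libraries of the S226A litters, lung replicate 1 was highest for Fcgr2b with 5.72 CPM (others 3.24 to 3.51), brain replicate 3 was highest for Fcgr2b with 1.62 CPM (others 0.957 to 0.967), and brain replicate 1 was lowest for Vav1 with 1.43 CPM (others 2.08 to 2.15). In S226A brain, replicate 1 was highest for Fcgr4 with 0.35 CPM (others 0 to 0.0413), which is 10 reads.

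The interaction in edgeR found effects that differed between groups (adjusted p below 0.05). Between the S226A and the Y130A effect they were, on the log2 scale, -1.68 for Fcgr1 and 0.76 for Vav1 in liver, and -0.89 for Cyth4 and -3.61 for Rasal3 in brain. Between the S226A effect in liver and in lung they were 1.19 for Cyth4, 0.82 for Fcer1g, 0.43 for Syk, 1.06 for Tyrobp and 1.04 for Vav1. Between liver and brain they were 1.52 for Cyth4, 0.85 for Fcer1g, 0.94 for Fcgr3, 4.204 for Rasal3, 1.59 for Tyrobp and 1.78 for Vav1, and between lung and brain 3.31 for Rasal3. The calls of Cyth4 between the mutants and of Syk between liver and lung were each lost in most alternatives.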

How the results depend on the processing

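The counts of members called in S226A liver (5) and in the Y130A tissues (0) and the calls between wild-type tissues held under DESeq2, RLE size factors, no filter on low counts, litter as replicate block and a fit of only the libraries compared to within 1.5 times, with 7 members in S226A liver in the last of these (Fcgr3 and Rasal3 gained). With RLE size factors, the median log2 fold change of all genes was -0.139 between wild-type liver and lung and -0.158 between liver and brain, compared with -0.0757 and -0.081 with TMM, and no direction of a member there changed. Under the stringent criteria, the count was 1 in S226A liver, 0 in S226A lung, 1 for the difference between the mutants' effects in liver and 1 in brain, 3 between liver and lung and 0 between lung and brain. In a fit of only the libraries compared, it was 0 in S226A lung, 1 in S226A brain, 4 and 1 for the difference between the mutants in liver and brain, and 0 between lung and brain. With DESeq2, it was 2 in S226A lung and 2 for the difference between the mutants in lung. With litter as replicate block, that difference had 4 members in liver and 1 in brain, and without a filter on low counts 1 in brain. The block also ended the call of Vav1 in S226A brain and of Cyth4 between the mutants in brain, and no other call of a member. The cause of these shifts was not tested.

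When single libraries were left out, the count lay between 1 and 2 in S226A lung, between 3 and 5 in S226A brain, between 2 and 3, 0 and 1, and 1 and 2 for the difference between the mutants in liver, lung and brain, and between 4 and 5 (liver and lung), 5 and 6 (liver and brain) and 0 and 1 (lung and brain) for the differences between tissues. In S226A lung it was 2 without wild-type replicate 2 (Fcgr2b, adjusted p = 0.0409) or 4 (Tyrobp, adjusted p = 0.0469, edgeR). The 12 exact permutation tests of Tyrobp and Vav1 that no longer passed without a library had a p of 0.0571 (exact, two-sided) with 3 libraries against 4.

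No called member changed its direction under any alternative. Log2 fold changes near 0 did: with both squamous livers left out, an alternative chosen after seeing the data, those of Y130A liver were -0.00265 for Fcgr4, 0.00938 for Syk, 0.00345 for Rasal3 and 0.0375 for Vav1, and with the block that of Rasal3 in Y130A brain was -0.0212. Others changed sign when a library was left out, none of them called. In S226A lung, the log2 fold change ranged for Fcgr4 from -0.048 to 0.51 and Fcgr3 from -0.23 to 0.091. In S226A brain, the log2 fold change ranged for Fcgr2b from -0.21 to 0.38. In Y130A liver, the log2 fold change ranged for Fcgr4 from -0.024 to 0.27, Fcer1g from -0.015 to 0.11, Fcgr1 from -0.17 to 0.053, Syk from -0.15 to 0.0092, Cyth4 from -0.11 to 0.031, Rasal3 from -0.19 to 0.10 and Vav1 from -0.086 to 0.051. In Y130A lung, the log2 fold change ranged for Cyth4 from -0.17 to 0.012, Rasal3 from -0.62 to 0.12 and Vav1 from -0.12 to 0.10. In Y130A brain, the log2 fold change ranged for Rasal3 from -0.24 to 0.13 and Vav1 from -0.16 to 0.013.

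Low read numbers limit Rasal3 and Fcgr4 in brain, with at most 20 and 12 reads per library in the S226A litters.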

Other observations

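The ratio of the activating Fcgr3 to the inhibitory Fcgr2b, both per kb, lay on opposite sides of the wild type in lung of the mutants. In S226A lung, it lay between 16.1 and 26.7, and in the wild-type littermates between 11.3 and 15.9. In Y130A lung, it lay between 8.37 and 10.7 against 11.4 to 13.4 in wild type, and in Y130A brain between 9.76 and 11.8 against 13.4 to 19.7. None of these lung and brain ranges overlapped within a comparison. In S226A brain, the ratio lay between 6.27 and 15.2 against 14.5 to 21.3 and overlapped. In liver the ranges overlapped for both mutants, with 6.67 to 10.2 in S226A against 6 to 7.2 and 5.65 to 8.52 in Y130A against 5.99 to 9.3 in wild type. The ratios were chosen after values of both genes were seen and were given no test, and the sequence shared by the 2 genes can move reads between them.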
